A study of Mus musculus with 12 samples.

Results

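The genes described here are 38 mitosis genes: the cyclins and kinases that start mitosis, the spindle checkpoint, the chromosomal passenger complex, kinetochore and centromere genes, mitotic kinesins, cytokinesis genes, and the topoisomerase, proliferation mark and transcription factor that go with them. They were chosen by name, and all 38 were found among the 48709 genes of the series' count table. All 38 also passed the filter on low counts that left 13702 genes for testing. The cells were mouse embryonic fibroblasts (MEFs) from wild-type C57BL/6 embryos (E12.5–13.5). They were transfected with an siRNA against IMP2 (siIMP2) or a control siRNA (siControl), and 24 hours later the medium was changed and interleukin-17 (IL-17, a cytokine that drives inflammatory genes in stromal cells) was added at 200 ng/mL for 8 hours or left out. IMP2 is the RNA-binding protein made from Igf2bp2. The 4 groups, siIMP2_IL17, siIMP2, siControl_IL17 and siControl, held 3 libraries each, 12 in all. Replicates 1 and 2 of every group have titles that begin with NA and replicate 3 of every group a title that begins with RB160, and the labels do not say what the prefixes stand for. Replicate numbers follow the order of deposit and were not used to pair libraries.

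A cell divides after cyclin-dependent kinase 1 (CDK1) joins cyclin B and is freed of its inhibitory phosphates by CDC25. Kinetochores then tie each chromosome to spindle microtubules, and the spindle checkpoint holds back the anaphase-promoting complex until every chromosome is attached. Most of these genes are transcribed late in the cell cycle, from G2 on, and are repressed in resting cells, so their summed mRNA is commonly read as a mark of dividing cells. In bulk RNA, fewer dividing cells and less mRNA per dividing cell cannot be told apart.

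Total counts per library were 33841054 to 44433699, so 1 CPM (the count scaled to the library's effective size) stood for 31.9 to 50.9 reads. Igf2bp2 averaged 21.9 ± 3.01 CPM in siIMP2 and 149 ± 17.1 CPM in siControl (SD, n = 3 each), 14.7% of the siControl mean. With IL-17 it averaged 23.6 ± 4.90 CPM in siIMP2_IL17 and 154 ± 13.5 CPM in siControl_IL17, 15.4%. Whether replicates were grown as separate cultures is not in the labels, and p-values therefore reflect how far these libraries differ, possibly for technical reasons only. Summed markers of other cell types reached 6.09 CPM for macrophages (5 genes, Adgre1 at 0), 1.502 for endothelium, 0.0941 for erythroid cells (Hba-a1 and Hbb-bt at 0), 0.486 for skeletal muscle (Myod1 at 0), 207 for epithelium and 146 for neural cells, against 15867 to 23518 CPM for 10 fibroblast markers.

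In the siControl libraries the median deposited TPM (an abundance scaled by gene length) of the 38 genes was 51.8, against 14.9 over all tested genes. Cks2, a small subunit that binds CDK1, stood highest at 228 ± 51.3 TPM (SD, n = 3), although only 41.2% of its gene reads mapped uniquely. Kif20a followed at 144 ± 48.4 TPM and Cdk1 at 118 ± 44.1 TPM, and the spreads of these neighbours overlapped. The lowest were Ttk at 15.3 ± 7.29 TPM and Cenpf at 14.4 ± 9.61 TPM, and their spreads overlapped as well. Of the reads of Prc1, Bub3, Ccna2, Ccnb1 and Kif20a 60.3%, 76.7%, 81.4%, 82.5% and 86.8% were unique, and for the other members at least 97.2%.

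The summed level of the 38 genes was lower with the IMP2 siRNA in the means of both comparisons, and the groups overlapped. It was 2230, 2394 and 3442 CPM in siIMP2 replicates 1, 2 and 3, against 2373, 3636 and 4381 CPM in siControl. With IL-17 it was 2067, 2305 and 3084 CPM in siIMP2_IL17, against 2194, 3325 and 3847 CPM in siControl_IL17. The siControl libraries of replicate 1 stood low in both conditions, near the siIMP2 libraries of replicates 1 and 2, and replicate 3 stood highest in every group. The means were 2689 ± 658 CPM in siIMP2 and 3463 ± 1015 CPM in siControl, and 2485 ± 532 CPM in siIMP2_IL17 and 3122 ± 845 CPM in siControl_IL17 (SD, n = 3 each).

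**Figure D1:**
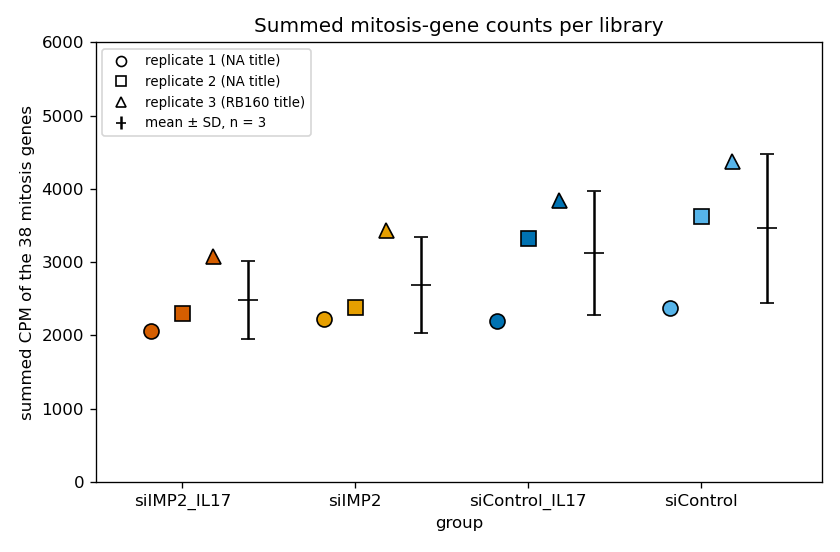
Summed CPM of the 38 mitosis genes in each library (points, y axis) by group (x axis), with the shape giving the replicate and the bar the mean ± SD of 3 libraries. Replicate 1 of both control groups, at 2194 and 2373 CPM, lies among the siIMP2 libraries of replicates 1 and 2, and replicate 3 is the highest of every group.

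Gene by gene, 15 of the 38 genes fell with the IMP2 siRNA in unstimulated cells and 0 rose. A gene was called when its adjusted p was below 0.05 by the quasi-likelihood test of edgeR, adjusted by Benjamini-Hochberg across the 13702 genes, in a fit with the title prefix as a term. Of all tested genes 16.7% were called lower and 16.1% higher, so the share of these genes called lower, 39.5%, was above that background in this fit. In some other fits, given further on, it was below the background. The log2 fold change was negative for 37 of 38 genes, with a median of -0.44 against -0.00 over all tested genes and a range from -0.79 (Ccnb2) to 0.11 (Tpx2). By edgeR 28 of the 38 genes had an unadjusted p below 0.05, as did 43.3% of all tested genes. Within RB160, with 1 library a group, the median was -0.35 and within the NA libraries -0.44.

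With IL-17 present, 12 of the 38 genes (31.6%) fell with the IMP2 siRNA and 0 rose, against 16.7% of all tested genes lower and 16.7% higher. The median log2 fold change was -0.37 (-0.01 over all tested genes), 37 of 38 were negative, and the range ran from -0.70 (Ccnb2) to 0.13 (Tpx2). By edgeR 20 of the 38 had an unadjusted p below 0.05, as did 43.5% of all tested genes. The RB160 median was -0.31 and the NA median -0.37. The 2 siRNA comparisons share no library, but come from 1 fit with a shared spread and prefix term, so their calls are not independent. In both control groups replicate 2 also lay above replicate 1 for 38 of 38 genes. Both called Ccnb2, Ccna2, Nek2, Mad2l1, Bub1b, Ttk, Ndc80, Nuf2, Kif11, Kif20a and Mki67, 11 genes in all. Only the unstimulated comparison called Ccnb1, Cenpe, Cenpf and Racgap1, and only the IL-17 comparison called Birc5. The difference between the comparisons, which equals the difference of the IL-17 responses, passed for 0 of all 13702 genes by edgeR, with 0 of the 38 at an unadjusted p below 0.05 and 0 called by DESeq2. All 38 genes had the same sign in both, and across the 38 genes the fold changes had Pearson's r of 0.93 and Spearman's rho of 0.91, against r of 0.83 across all tested genes. Genes are not independent replicates, and the r is a description.

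**Figure D2:**
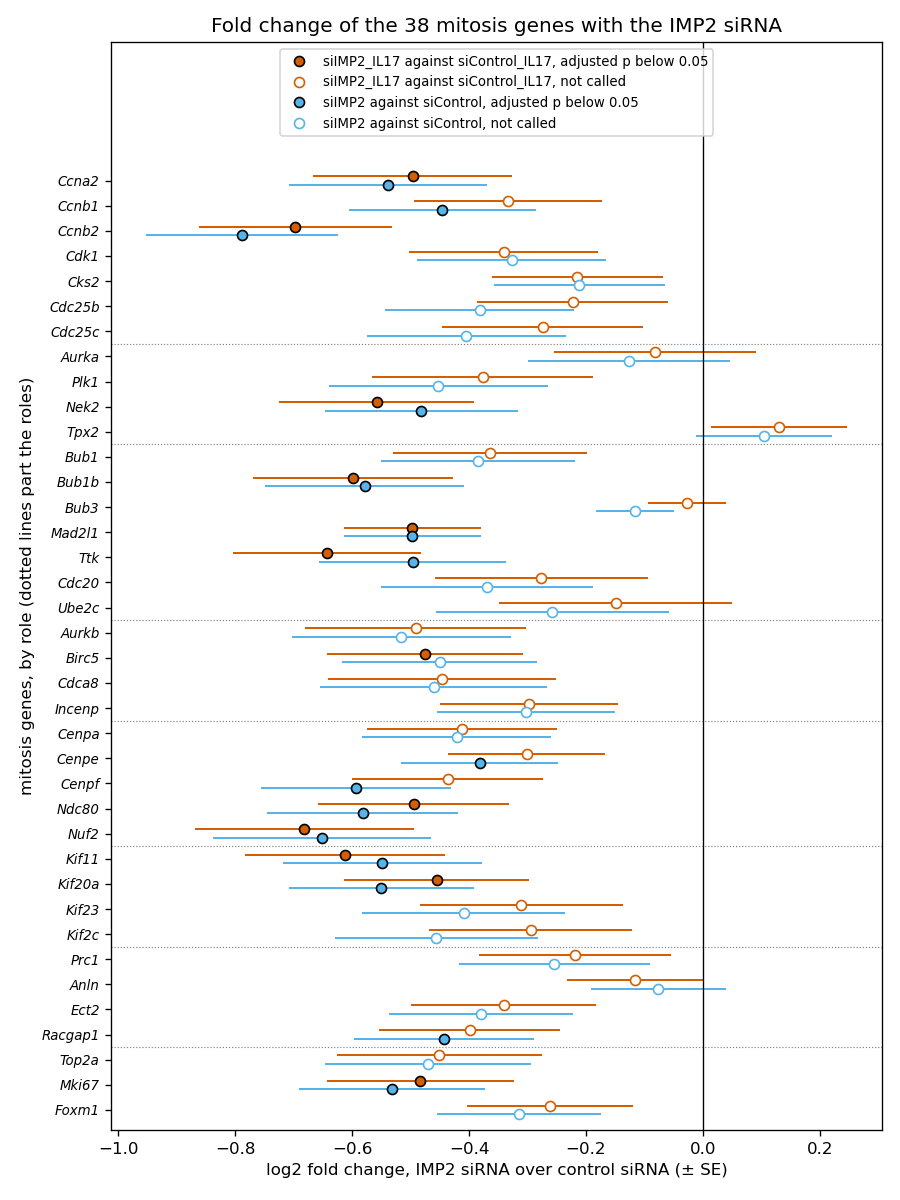
Log2 fold change (x axis, ± SE) of the 38 mitosis genes (rows, by role) with the IMP2 siRNA, with IL-17 in orange and without in blue; filled points have an adjusted p below 0.05. All but Tpx2 lie left of 0 in both comparisons, Ccnb2 lies farthest left at -0.70 with IL-17 and -0.79 without, and 22 genes have only open points.

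Mitosis genes carry well-known elements near their start sites: CCAAT boxes, which bind NF-Y, and the cell cycle genes homology region (CHR, TTTGAA), which binds the MuvB core of the DREAM and B-MYB complexes. RefSeq (GRCm38.p6) gave a promoter, 250 bases before to 50 after the start, for 31 of the 38 genes, 34 promoters in all. CCAAT, on either strand, was in 28 of 34 (82.35%), against 37.41% of all 32851 promoters. TTTGAA, on either strand, was in 25 of 34 (73.53%), against 17.89%, and both were in 22 of 34 (64.71%), against 6.953%. Among the 14 promoters of genes called lower in either siRNA comparison 10 held CCAAT, 8 TTTGAA and 7 both, and among the 20 promoters of genes not called 18, 17 and 15 did. The counts are descriptions of letters, not of bound sites. The 150 bases before the start are shown for 3 genes called lower in both siRNA comparisons (Ccnb2, Ttk, Nek2) and for 3 called in neither (Plk1, Ube2c, Aurka). Each gene shown holds CCAAT on either strand, and Nek2 has no TTTGAA in its promoter. Of the genes called lower in either comparison, Mad2l1, Nuf2 and Birc5 had neither element and Ndc80 had no CCAAT. Capitals mark CCAAT or TTTGAA or their reverse complements, ATTGG and TTCAAA. Ccnb2 is at chr9:70421555-70421704 (minus strand), Ttk at chr9:83834539-83834688 (plus), Nek2 at chr1:191821323-191821472 (plus), Plk1 at chr7:122159285-122159434 (plus), Ube2c at chr2:164769779-164769928 (plus) and Aurka at chr2:172370571-172370720 (minus).
Ccnb2: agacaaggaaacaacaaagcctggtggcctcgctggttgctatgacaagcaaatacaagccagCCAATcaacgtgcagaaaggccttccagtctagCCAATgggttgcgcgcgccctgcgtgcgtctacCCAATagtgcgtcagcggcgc
Ttk: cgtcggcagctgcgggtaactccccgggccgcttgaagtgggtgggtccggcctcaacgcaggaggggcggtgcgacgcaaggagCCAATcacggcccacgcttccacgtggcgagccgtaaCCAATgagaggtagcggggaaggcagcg
Nek2: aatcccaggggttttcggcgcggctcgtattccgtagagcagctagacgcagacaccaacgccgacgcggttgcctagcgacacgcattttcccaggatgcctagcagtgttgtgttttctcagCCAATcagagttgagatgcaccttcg
Plk1: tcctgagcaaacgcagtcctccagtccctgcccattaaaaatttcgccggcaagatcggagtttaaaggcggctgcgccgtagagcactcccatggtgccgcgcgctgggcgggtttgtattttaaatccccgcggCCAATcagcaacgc
Ube2c: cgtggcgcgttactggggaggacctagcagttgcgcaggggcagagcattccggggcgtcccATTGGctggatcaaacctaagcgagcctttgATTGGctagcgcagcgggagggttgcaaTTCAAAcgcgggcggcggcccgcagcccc
Aurka: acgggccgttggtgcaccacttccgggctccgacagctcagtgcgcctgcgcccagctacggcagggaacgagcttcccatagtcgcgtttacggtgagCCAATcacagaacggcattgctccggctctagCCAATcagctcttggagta

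In several members TTTGAA or its reverse complement lies at or just after the start, outside those 150 bases. Whether these letters act as a CHR was not tested. The 18 bases around the copy nearest the start are shown for 6 members to compare the flanks, with TTTGAA or its reverse complement in capitals. Counted from 1 at the start, its first base is at position 5 in Ccnb2, 8 in Ttk, 41 in Bub1b, 31 in Plk1 and 33 in Aurka, and at -15 (before the start) in Cdk1. The coordinates are chr9:70421539-70421556 (minus) for Ccnb2, chr10:69352916-69352933 (minus) for Cdk1, chr9:83834690-83834707 (plus) for Ttk, chr2:118598243-118598260 (plus) for Bub1b, chr7:122159459-122159476 (plus) for Plk1 and chr2:172370527-172370544 (minus) for Aurka. Ccnb2, Ttk and Bub1b were called lower in both siRNA comparisons, and Cdk1, Plk1 and Aurka in neither.
Ccnb2: gcggtaTTTGAAtcgcgg
Cdk1: ggcgagTTTGAAactgct
Ttk: ggaaatTTCAAAcgtgtt
Bub1b: acgttaaaTTTGAAactt
Plk1: gccgcgTTTGAAttcggg
Aurka: agaaccTTTGAAttgtaa

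Of the 7 genes for cyclins, CDK1 and its CDC25 activators, 3 fell in unstimulated cells and 2 with IL-17, with median log2 fold changes of -0.40 and -0.33. Ccnb2 (ENSMUSG00000032218, mm10 chromosome 9, 70407689 to 70421554, minus strand) encodes cyclin B2, a partner of CDK1. It stood at 25.4, 20.8 and 35.1 CPM in siIMP2, against 30.7, 46.2 and 64.7 CPM in siControl, and at 22.6, 21.1 and 30.2 CPM in siIMP2_IL17, against 26.9, 42.6 and 50.6 CPM in siControl_IL17, each given for replicates 1, 2 and 3 as in all such lists. Within the NA and within the RB160 libraries every siIMP2 value lay below every siControl value, and across prefixes the groups overlapped. The log2 fold change, given with its SE throughout, was -0.79 ± 0.16 (edgeR adjusted p = 0.00268), with -0.88 within RB160 and -0.71 within NA, and -0.70 ± 0.17 (edgeR adjusted p = 0.00592) with IL-17. The call held in 25 of 26 other fits in each comparison.

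Ccna2 encodes cyclin A2, which serves S phase and the entry into mitosis. It stood at 71.6, 81.1 and 115 CPM in siIMP2, against 89.3, 137 and 161 CPM in siControl, and at 63.1, 75.8 and 102 CPM in siIMP2_IL17, against 75.7, 126 and 135 CPM in siControl_IL17. The siIMP2 libraries were lower within each prefix in unstimulated cells, and with IL-17 replicate 2 of siIMP2_IL17 reached replicate 1 of siControl_IL17. Its log2 fold change was -0.54 ± 0.17 (edgeR adjusted p = 0.0276), and -0.50 ± 0.17 (edgeR adjusted p = 0.0392) with IL-17, called in 18 and 12 of 26 other fits. Ccnb1, cyclin B1, stood at 45.5, 45.3 and 72.3 CPM in siIMP2, against 51.1, 78.3 and 90.7 CPM in siControl, and at 43.1, 45.2 and 69.6 CPM in siIMP2_IL17, against 46.9, 73.7 and 75.1 CPM in siControl_IL17. Within each prefix its siIMP2 libraries were lower, and it passed only in unstimulated cells, at -0.45 ± 0.16 (edgeR adjusted p = 0.0478), against -0.33 ± 0.16 (edgeR adjusted p = 0.13) with IL-17. The unstimulated call of Ccnb1 held in 14 of 26 other fits. Cdk1 itself did not pass. It stood at 90.9, 102 and 143 CPM in siIMP2, against 94.9, 153 and 170 CPM in siControl, and at 81.5, 96.2 and 138 CPM in siIMP2_IL17, against 93.2, 141 and 162 CPM in siControl_IL17, so that siIMP2 replicate 2 lay above siControl replicate 1. For Cdk1 the log2 fold change was -0.33 ± 0.16 (edgeR adjusted p = 0.139), and -0.34 ± 0.16 (edgeR adjusted p = 0.125) with IL-17. The phosphatase genes Cdc25b and Cdc25c had -0.38 and -0.40, and -0.22 and -0.27 with IL-17, and Cks2 had -0.21 in both comparisons, none of them called.

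Among the Aurora, polo and NEK kinases and TPX2, 1 of 4 genes fell in each comparison. Nek2, whose kinase parts the centrosomes, stood at 15.6, 15.05 and 27.4 CPM in siIMP2, against 16.7, 28.7 and 34.5 CPM in siControl, and at 13.5, 13.3 and 21.8 CPM in siIMP2_IL17, against 15.8, 22.9 and 33.4 CPM in siControl_IL17. Its siIMP2 libraries were lower within each prefix. The log2 fold change of Nek2 was -0.48 ± 0.16 (edgeR adjusted p = 0.0392), called in 13 of 26 other fits, and -0.56 ± 0.17 (edgeR adjusted p = 0.0208) with IL-17, called in 19. Plk1, the polo-like kinase of mitotic entry and spindle assembly, stood at 54.6, 59.4 and 62.9 CPM in siIMP2, against 59.6, 104 and 78.9 CPM in siControl, and at 49.9, 57.03 and 52.2 CPM in siIMP2_IL17, against 55.1, 90.2 and 61.9 CPM in siControl_IL17. siIMP2 replicate 2 lay just below siControl replicate 1, and siIMP2_IL17 replicate 2 lay above siControl_IL17 replicate 1. The log2 fold change did not pass, at -0.45 ± 0.19 (edgeR adjusted p = 0.0826), and -0.38 ± 0.19 (edgeR adjusted p = 0.145) with IL-17. Aurka, the Aurora A kinase gene, had -0.13 and, with IL-17, -0.08. Tpx2, which activates Aurora A on spindle microtubules, had 0.11 and 0.13, the only positive values, and neither gene was called.

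Of the 7 genes of the spindle checkpoint and the anaphase-promoting complex, 3 fell in each comparison: Mad2l1, Bub1b and Ttk. Mad2l1 (ENSMUSG00000029910, mm10 chromosome 6, 66535390 to 66547220, plus strand) encodes MAD2, the checkpoint inhibitor of CDC20. It stood at 48.8, 49.3 and 73.2 CPM in siIMP2, against 60.2, 78.9 and 102 CPM in siControl, and at 45.3, 48.3 and 70.7 CPM in siIMP2_IL17, against 53.7, 78.2 and 100 CPM in siControl_IL17. The siIMP2 libraries were lower within each prefix in both conditions. Its log2 fold change was -0.50 ± 0.12 (edgeR adjusted p = 0.00584), with -0.49 within RB160 and -0.49 within NA, and -0.50 ± 0.12 (edgeR adjusted p = 0.00572) with IL-17, and the call held in 25 of 26 other fits in each comparison.

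Bub1b encodes BUBR1, which works beside MAD2. It stood at 32.3, 36.9 and 58.5 CPM in siIMP2, against 40.03, 65.9 and 83.8 CPM in siControl, and at 30.8, 33.9 and 50.5 CPM in siIMP2_IL17, against 39.4, 61.9 and 71.7 CPM in siControl_IL17, lower in siIMP2 within each prefix. For Bub1b the log2 fold change was -0.58 ± 0.17 (edgeR adjusted p = 0.02), and -0.60 ± 0.17 (edgeR adjusted p = 0.0169) with IL-17, called in 21 and 22 of 26 other fits. Ttk, the MPS1 kinase that recruits the checkpoint to kinetochores, had -0.50 ± 0.16 (edgeR adjusted p = 0.0302), called in 17 of 26 other fits, and -0.64 ± 0.16 (edgeR adjusted p = 0.00799) with IL-17, called in 25. Bub1, the kinase partner of BUB3, had -0.38 and -0.36, and Bub3 itself -0.12 and -0.03. Cdc20, the activator of the anaphase-promoting complex, had -0.37 and -0.28, and Ube2c, its ubiquitin-conjugating enzyme, -0.26 and -0.15. None of these 4 was called in either comparison.

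The chromosomal passenger complex corrects wrong attachments of chromosomes, and of its 4 genes 0 fell in unstimulated cells (4 of 4 negative, log2 fold changes from -0.52 to -0.30) and 1 with IL-17. Aurkb, its kinase, stood at 19.1, 21.8 and 39.2 CPM in siIMP2, against 21.4, 36.2 and 57.8 CPM in siControl, and at 17.1, 22.4 and 34.4 CPM in siIMP2_IL17, against 19.9, 32.3 and 53.9 CPM in siControl_IL17. Replicate 2 of both IMP2 siRNA groups lay just above replicate 1 of its control group. It missed the threshold at -0.52 ± 0.19 (edgeR adjusted p = 0.0511), and -0.49 ± 0.19 (edgeR adjusted p = 0.0624) with IL-17. Birc5, which encodes survivin, stood at 47.8, 54.4 and 81.3 CPM in siIMP2, against 53.1, 87.6 and 110 CPM in siControl, and at 44.3, 48.5 and 69.6 CPM in siIMP2_IL17, against 48.8, 76.8 and 102 CPM in siControl_IL17. siIMP2 replicate 2 lay above siControl replicate 1, and with IL-17 the IMP2 siRNA libraries were lower within each prefix. It had -0.45 ± 0.17 (edgeR adjusted p = 0.0546), and passed with IL-17, at -0.47 ± 0.17 (edgeR adjusted p = 0.0443), a call that held in 11 of 26 other fits. Cdca8 (borealin) had -0.46 and -0.45, and the scaffold gene Incenp -0.30 in both comparisons.

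The 5 genes of the centromere and outer kinetochore had the lowest median of the 8 roles in unstimulated cells, -0.58, with 4 called, and -0.44 with IL-17, with 2 called. Cenpf, a large protein of the outer kinetochore, stood at 25.2, 26.04 and 56.2 CPM in siIMP2, against 29.7, 46.5 and 87.4 CPM in siControl, and at 25.4, 27.6 and 49.5 CPM in siIMP2_IL17, against 26.4, 41.9 and 73.6 CPM in siControl_IL17. Its siIMP2 libraries were lower within each prefix in unstimulated cells, and with IL-17 replicate 2 of siIMP2_IL17 lay above replicate 1 of siControl_IL17. Its log2 fold change was -0.59 ± 0.16 (edgeR adjusted p = 0.0135), called in 23 of 26 other fits, and -0.44 ± 0.16 (edgeR adjusted p = 0.0556) with IL-17. Ndc80, a subunit of the complex that grips the microtubule, stood at 14.4, 16.3 and 34.7 CPM in siIMP2, against 18.2, 27.1 and 53.4 CPM in siControl, and at 15.7, 16.3 and 31.7 CPM in siIMP2_IL17, against 15.96, 26.2 and 50.4 CPM in siControl_IL17. Replicate 3 stood highest in every group, and the siIMP2 libraries were lower within each prefix in unstimulated cells, while siIMP2_IL17 replicate 2 lay above siControl_IL17 replicate 1. The log2 fold change was -0.58 ± 0.16 (edgeR adjusted p = 0.0156), and -0.49 ± 0.16 (edgeR adjusted p = 0.0339) with IL-17, called in 21 and 16 of 26 other fits. Its partner subunit Nuf2 had -0.65 ± 0.19 (edgeR adjusted p = 0.0174), and -0.68 ± 0.19 (edgeR adjusted p = 0.0138) with IL-17, called in 21 and 22 of 26 other fits. The kinetochore motor gene Cenpe had -0.38 ± 0.13 (edgeR adjusted p = 0.0437), called in 14 of 26 other fits, and -0.30 with IL-17. Cenpa, the centromeric histone H3 variant, had -0.42 and -0.41 and was not called.

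Of the 4 kinesin motor genes 2 fell in each comparison. Kif20a, a motor of the central spindle, stood at 109, 113 and 165 CPM in siIMP2, against 131, 212 and 218 CPM in siControl, and at 107, 107 and 144 CPM in siIMP2_IL17, against 125, 185 and 177 CPM in siControl_IL17, lower in siIMP2 within each prefix. The fold change of Kif20a on the log2 scale was -0.55 ± 0.16 (edgeR adjusted p = 0.018), and -0.46 ± 0.16 (edgeR adjusted p = 0.0421) with IL-17, called in 21 and 15 of 26 other fits. Kif11, the EG5 motor that pushes spindle poles apart, stood at 33.2, 39.1 and 90.6 CPM in siIMP2, against 39.8, 64.2 and 137 CPM in siControl, and at 31.1, 35.5 and 78.7 CPM in siIMP2_IL17, against 38.4, 61.8 and 124 CPM in siControl_IL17, also lower within each prefix. For Kif11 it was -0.55 ± 0.17 (edgeR adjusted p = 0.0258), and -0.61 ± 0.17 (edgeR adjusted p = 0.015) with IL-17, called in 17 and 19 of 26 other fits. Kif23, a subunit of centralspindlin, had -0.41 and -0.31, and Kif2c, a microtubule depolymerase, -0.46 and -0.29, and neither was called.

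Of the 4 cytokinesis genes 1 fell in unstimulated cells and 0 with IL-17. With IL-17 the 4 had log2 fold changes from -0.40 to -0.12, all negative. Racgap1, the partner of KIF23 in centralspindlin, stood at 118, 121 and 175 CPM in siIMP2, against 127, 201 and 235 CPM in siControl, and at 102, 116 and 149 CPM in siIMP2_IL17, against 115, 174 and 194 CPM in siControl_IL17. It was lower in siIMP2 within each prefix in unstimulated cells and passed there at -0.44 ± 0.15 (edgeR adjusted p = 0.0425), in 11 of 26 other fits, against -0.40 ± 0.15 (edgeR adjusted p = 0.0634) with IL-17, where siIMP2_IL17 replicate 2 lay above siControl_IL17 replicate 1. Ect2, the exchange factor that activates RhoA at the division plane, stood at 36.9, 39.5 and 66.9 CPM in siIMP2, against 42.9, 63.6 and 76.7 CPM in siControl, and at 31.97, 36.03 and 59.95 CPM in siIMP2_IL17, against 37.6, 57.1 and 63.6 CPM in siControl_IL17, lower in siIMP2 within each prefix, and did not pass, at -0.38 ± 0.16 (edgeR adjusted p = 0.0817), and -0.34 ± 0.16 (edgeR adjusted p = 0.117) with IL-17. Prc1, which bundles the midzone microtubules, had -0.25 and -0.22, and Anln, the ring scaffold anillin, -0.08 and -0.12.

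Mki67, the Ki-67 proliferation mark, fell in both comparisons. It stood at 111, 124 and 216 CPM in siIMP2, against 132, 196 and 333 CPM in siControl, and at 100, 114 and 189 CPM in siIMP2_IL17, against 110, 179 and 284 CPM in siControl_IL17. Its siIMP2 libraries were lower within each prefix in unstimulated cells, and with IL-17 replicate 2 of siIMP2_IL17 lay above replicate 1 of siControl_IL17. The log2 fold change of Mki67 was -0.53 ± 0.16 (edgeR adjusted p = 0.0219), and -0.48 ± 0.16 (edgeR adjusted p = 0.0338) with IL-17, called in 18 and 16 of 26 other fits. Top2a, the topoisomerase that untangles chromosomes, stood at 122, 154 and 340 CPM in siIMP2, against 149, 227 and 487 CPM in siControl, and at 118, 151 and 324 CPM in siIMP2_IL17, against 135, 222 and 469 CPM in siControl_IL17. Replicate 3 stood far above the others in every group, and the gene missed the threshold at -0.47 ± 0.18 (edgeR adjusted p = 0.0562), and -0.45 ± 0.18 (edgeR adjusted p = 0.0653) with IL-17. Foxm1, a transcription factor of G2 and mitosis genes, stood at 69.9, 76.3 and 103 CPM in siIMP2, against 69.9, 111 and 130 CPM in siControl, and at 59.8, 68.3 and 89.2 CPM in siIMP2_IL17, against 65.2, 89.5 and 105 CPM in siControl_IL17. Replicate 1 of siIMP2 and of siControl were level, and the log2 fold change did not pass, at -0.31 ± 0.14 (edgeR adjusted p = 0.105), and -0.26 ± 0.14 (edgeR adjusted p = 0.178) with IL-17.

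**Figure D3:**
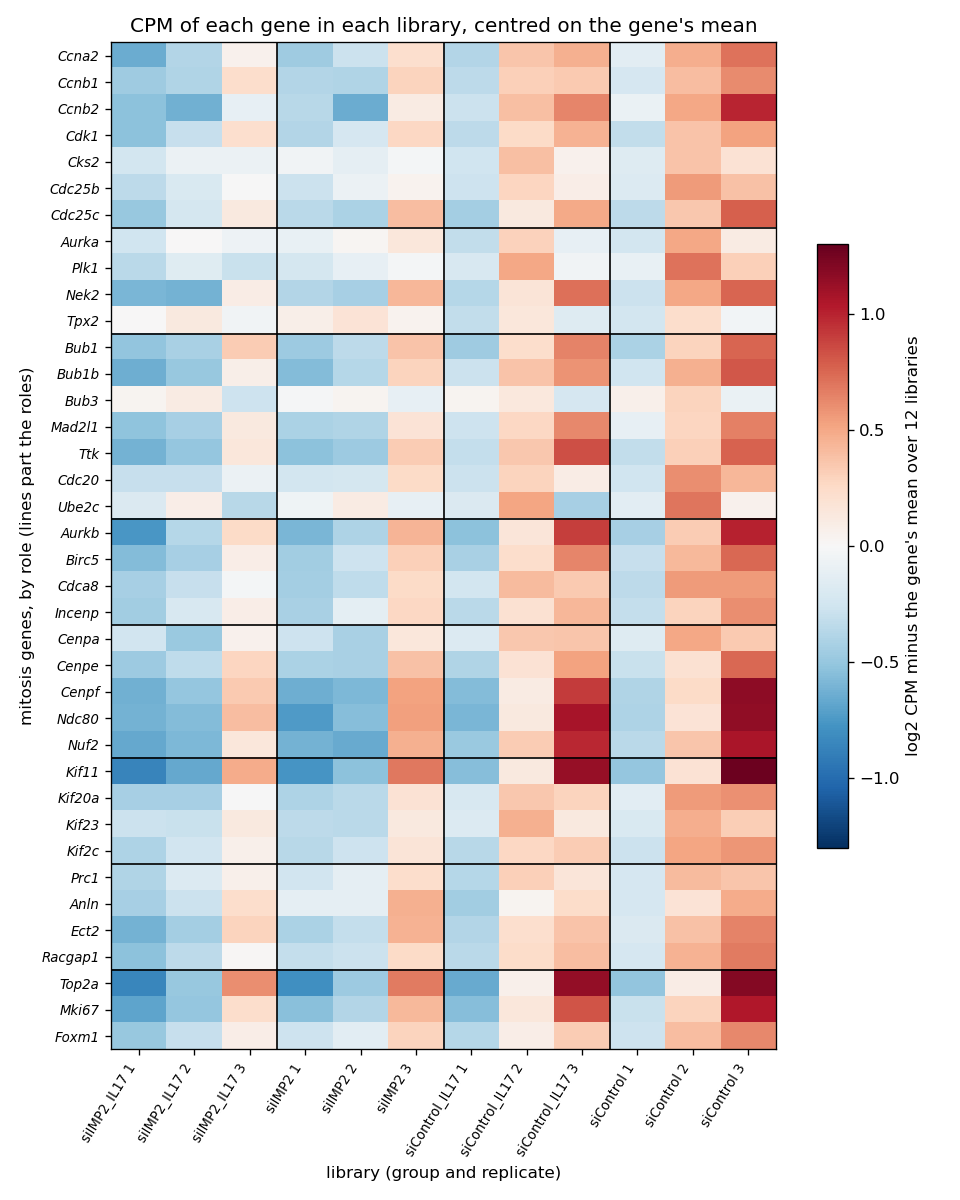
Log2 CPM of each mitosis gene (rows, by role) in each of the 12 libraries (columns), minus the gene's mean over the libraries, with red above and blue below it. Replicate 1 of both control groups is blue for nearly all genes (not for Bub3) while replicate 2 is red and replicate 3 is red for most, and replicate 3 is the reddest column of most rows in every group.

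The calls depended on single libraries. With both prefixes pooled, 0 of 38 genes had all 3 siIMP2 libraries below all 3 siControl libraries, where 9.25% of all tested genes did. With IL-17 it was 0 of 38, where 9.58% did. Of the 38 genes 28 were higher in RB160 than in NA, where 34.9% of all tested genes were. The pooled count therefore does not measure the siRNA difference alone. Within the NA libraries the siIMP2 values lay below the siControl values for 21 genes (32% of all genes) and, with IL-17, for 15 (34.1%), and in RB160 for 36 (51.5%) and 35 (50.2%). The 2 NA control libraries of each condition differed from each other. In siControl, replicate 2 was above replicate 1 for 38 of 38 genes, by a median of 0.67 on the log2 scale (1.59-fold), and in siControl_IL17 for 38 of 38 by 0.64 (1.56-fold). In siIMP2 the same median was 0.10 (29 of 38 genes higher in replicate 2) and in siIMP2_IL17 0.14 (33 of 38). Over all tested genes these medians lay between -0.00 and 0.01.

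Set against single control libraries, the fold change therefore differed. Against siControl replicate 1, siIMP2 replicates 1 and 2 had medians of -0.12 and -0.02 over the 38 genes, and against siControl replicate 2 they had -0.82 and -0.72, with all 38 negative. In RB160 the median was -0.35. With IL-17 the medians were -0.12 and 0.04 against siControl_IL17 replicate 1, -0.75 and -0.62 against replicate 2, and -0.31 in RB160. The medians over all tested genes in these pairs were between -0.01 and 0.01.

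**Figure D4:**
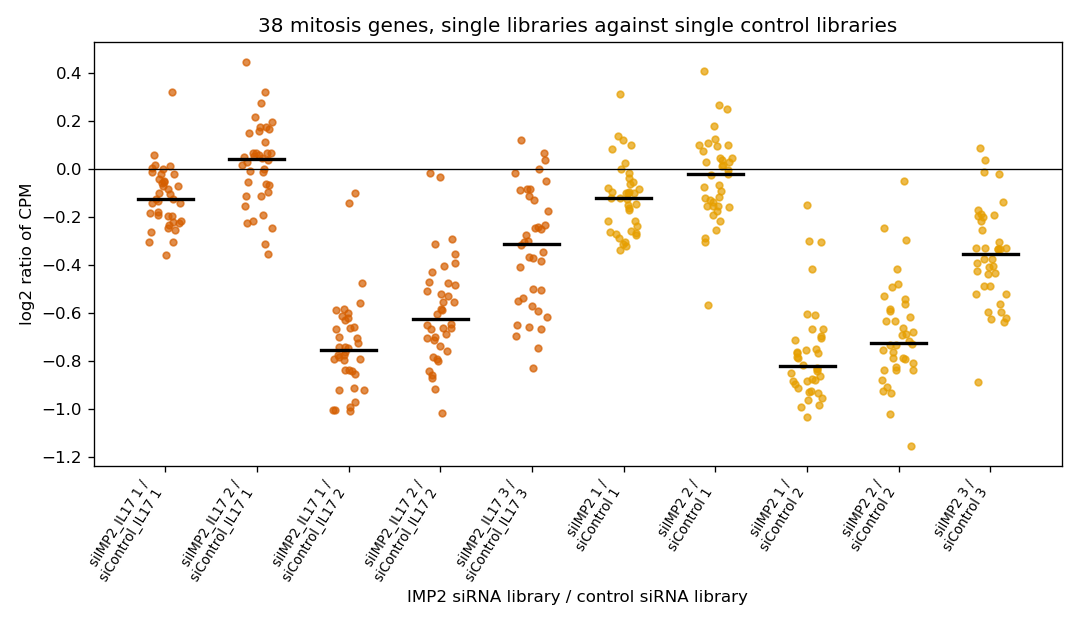
Log2 ratio of CPM (y axis) of each of the 38 mitosis genes (points) between a single IMP2 siRNA library and a single control library of the same title prefix (x axis), with the median as a bar. Medians are near 0 against control replicate 1 (-0.12 to 0.04) and between -0.82 and -0.62 against control replicate 2.

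The number of calls moved with these libraries. In unstimulated cells 31 genes were called lower without siControl replicate 1, 2 without replicate 2 and 8 without replicate 3. Without siIMP2 replicates 1, 2 and 3 there were 3, 7 and 6. Of all tested genes 14.3% were lower without siControl replicate 3, and 12.6%, 11.5% and 12.4% without siIMP2 replicates 1, 2 and 3. Without siIMP2 replicate 1 the share of the 38 was below that of all tested genes. Leaving out siControl_IL17 replicate 2, which is in neither group of that comparison but is in the same model, gave 23. In that fit 16% of all tested genes were lower. With IL-17, 20 were called without siControl_IL17 replicate 1, 3 without replicate 2 and 7 without replicate 3, and 4 each without siIMP2_IL17 replicate 1 or 3. Without replicate 1 of both control groups 34 and 32 genes were called, and without replicate 2 of both 13 and 8. Of all tested genes 15.2% and 15.8% were lower in the first fit, and 13.5% and 12.8% in the second. These 2 fits were chosen after seeing the data. A robust fit, which shrinks the spread of unusual genes less, called 4 and 5, where 16.4% and 16.6% of all tested genes were lower. A fit without the title-prefix term called 0 and 0, with 1 unadjusted p below 0.05 in each, where 1.34% and 1.42% were lower. Without siControl replicate 2 the background was 13.3%, and without siControl_IL17 replicate 2 it was 12% with IL-17. In the robust fit, the fit without the prefix term and these fits without replicate 2 of 1 control group, the share of the 38 called lower was below the background. Without siControl replicate 1 it was above, against 15.1%. The median of -0.44 in unstimulated cells was -0.59 without siControl replicate 1 and -0.23 without siControl replicate 2, and the median of -0.37 with IL-17 was -0.52 without siControl_IL17 replicate 1 and -0.16 without siControl_IL17 replicate 2. Without replicate 2 of both control groups the medians were -0.23 and -0.15. A false discovery rate below 0.05 was reached by 0 of 38 genes in the authors' deposited table in any of the 4 comparisons. The share of all genes that reached it there is not given here, so this 0 has no background beside it. The lowest rate among the 38 was 0.454 for siIMP2 against siControl and 0.890 with IL-17. Their median log fold changes were -0.43 and -0.36.

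IL-17 by itself moved 0 of the 38 genes past the threshold, with either siRNA. In siControl_IL17 against siControl 0.168% of all tested genes were called lower and 0.255% higher, and in siIMP2_IL17 against siIMP2 0.168% and 0.343%. Of the 38 genes 0 had an unadjusted p below 0.05 in either comparison by edgeR's quasi-likelihood test, where 11% and 7.58% of all tested genes did. DESeq2 also called 0, with 0 and 1 unadjusted. The log2 fold changes were nevertheless mostly on one side: 37 of 38 were negative in each comparison, with medians of -0.15 in siControl_IL17 against siControl and -0.10 in siIMP2_IL17 against siIMP2, both against -0.01 over all tested genes. With the control siRNA they ran from -0.25 (Cdc20 and Foxm1) to 0.04 (Ttk), and with the IMP2 siRNA from -0.24 (Anln and Nek2) to 0.04 (Kif23). The lowest adjusted p was 0.559 with the control siRNA and 0.705 with the IMP2 siRNA by edgeR. The control siRNA median turned with single libraries: it was 0.03 without siControl replicate 2, with 12 of 38 negative, and -0.01 without siControl_IL17 replicate 1, with 20 negative. It was -0.30 without siControl replicate 1 and -0.32 without siControl_IL17 replicate 2, with 15 and 18 genes at an unadjusted p below 0.05 and 0 called by edgeR in each of the 4 fits.

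The difference of the IL-17 responses (the response with the IMP2 siRNA minus that with the control siRNA) passed for 0 of 38 genes and for 0 of all 13702 genes, so 0% were called lower and 0% higher by edgeR, and DESeq2 and limma-voom also called 0. None of the 38 had an unadjusted p below 0.05 by edgeR, where 1.11% of all tested genes did. The median difference was 0.04, with a range from -0.15 (Ttk) to 0.16 (Kif2c, Cenpf and Cdc25b). Its sign turned with single control libraries: it was 0.20 without siControl replicate 1 and 0.23 without siControl_IL17 replicate 2, each with 0 genes negative, but -0.14 without siControl replicate 2 and -0.10 without siControl_IL17 replicate 1, with 36 and 34 negative.

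More of the genes were called between the title prefixes than between the siRNAs, which also held for all tested genes. The prefix term sets 4 RB160 libraries against 8 NA libraries, while each siRNA comparison sets 3 libraries against 3. Of the 38 genes 28 were higher and 1, Bub3, was lower in the RB160 than in the NA libraries, where 34.9% of all tested genes were higher and 34.6% lower. The median log2 fold change was 0.53, against 0.00 over all tested genes. Top2a stood 1.33 ± 0.13 higher (SE, edgeR adjusted p = 8.44e-07), with 487 CPM in the RB160 library of siControl, against 149 and 227 CPM in the NA libraries of that group. Kif11 was 1.32 ± 0.12 higher (6.53e-07), Ndc80 1.17 ± 0.12 (1.36e-06) and Cenpf 1.09 ± 0.12 (2.62e-06). Of the 9 genes not called, Aurka had 0.01, Plk1 -0.04, Tpx2 -0.09, Cks2 0.04 and Ube2c -0.34, and Prc1, Kif23, Cdc20 and Cdc25b had 0.29, 0.25, 0.24 and 0.17. Bub3 had -0.26 ± 0.05 (0.000539). By role, all 5 centromere and kinetochore genes and all 4 passenger complex genes were higher in RB160, against 1 of the 4 in the group of Aurora, polo and NEK kinases and TPX2 (Nek2).

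The GC content of a gene moved with the prefix difference. In 5 equal bins of all tested genes, from low to high GC of the longest coding transcript, the median RB160 against NA difference was 0.23, 0.15, 0.03, -0.10 and -0.30. The 12, 11, 7, 7 and 1 mitosis genes in those bins had medians of 0.77, 0.52, 0.49, 0.39 and -0.04, above the median of all genes in every bin. With offsets for GC content and transcript length per library, chosen after seeing the data, 27 of 38 were higher in RB160 with a median of 0.41. Of all 13678 genes tested in that fit 4247 were higher in RB160 and 36.2% lower, with a median of -0.02. In the same fit 10 of the 38 genes were lower with the IMP2 siRNA in unstimulated cells, and 6 with IL-17. In these siRNA comparisons 15.8% and 14.9% of all tested genes were lower. The medians of the 38 were -0.39 and -0.33, against 0.02 over all tested genes in both. What else differs between the prefixes, in the cells or in the libraries, cannot be told apart here.

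**Figure D5:**
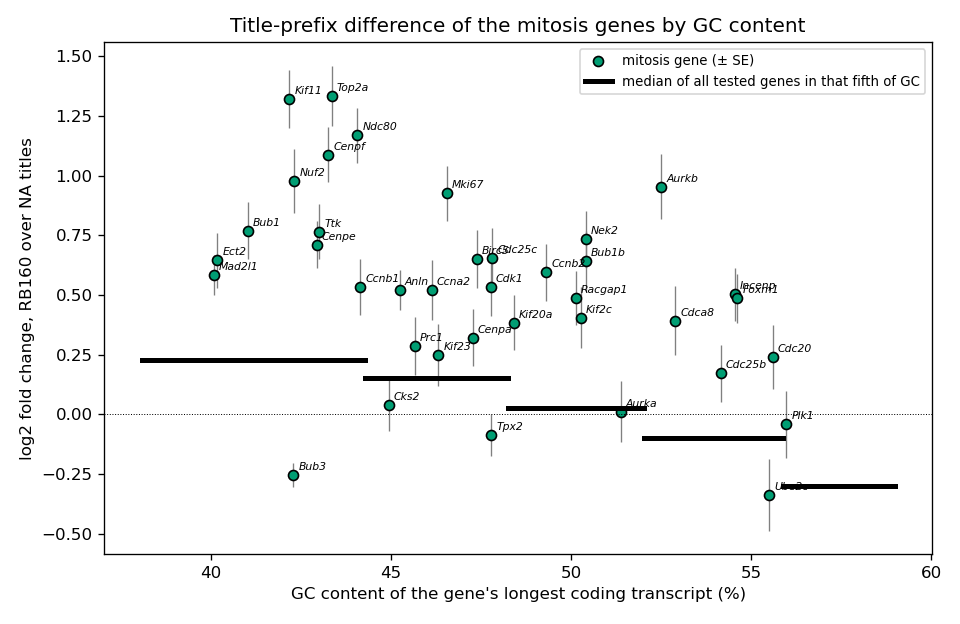
Log2 fold change of RB160 over NA libraries (y axis, ± SE) of each mitosis gene against the GC content of its longest coding transcript (x axis, %), with black bars at the medians of all tested genes in each of 5 equal GC bins. The mitosis genes lie mostly above the bars, with Kif11 (1.32) and Top2a (1.33) highest and Ube2c (-0.34) lowest.

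Whether the siRNA effect differed between the prefixes was tested as an interaction. It passed for 0 of 38 genes, with 0 at an unadjusted p below 0.05 and a lowest edgeR adjusted p of 0.384, where 5.2% of all tested genes passed. The RB160 arm of that test holds 1 library a group, so a p that misses the threshold does not show equal effects. Ccnb2, for example, had -0.88 within RB160 and -0.71 within NA, and Ect2 -0.20 and -0.45.

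Reads outside exons, from which 3 genes were chosen after their values were seen, gave a further readout of the same genes. They are the deposited total gene reads less the exon reads, 4.49% to 6.42% of all gene reads in a library, and may come from introns of unspliced RNA or from overlapping genes, since the use of strand is not given in the sources used here. They numbered 2877 to 10962 per library over the 38 genes. In unstimulated cells 6 genes were lower with the IMP2 siRNA (Mad2l1, Mki67, Ttk, Ccnb2, Top2a and Cdc25c) and 1 was higher (Tpx2), against 4.89% lower and 5.91% higher of 12463 tested genes. With IL-17 4 were lower (Ttk, Ndc80, Bub1 and Top2a) and again Tpx2 higher, against 4.67% and 6.03%. The medians were -0.33 and -0.25, with 36 of 38 negative in each comparison, and over all tested genes -0.01.

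Ttk had 12.04, 24.2 and 40.9 CPM of reads outside exons in siIMP2, against 21.2, 44.5 and 85.1 CPM in siControl (CPM of such reads). The RB160 library was highest in both groups, and siIMP2 replicate 2 lay above siControl replicate 1, so the groups overlapped. Its log2 fold change was -0.93 ± 0.23 (SE, edgeR adjusted p = 0.00694), and -0.88 ± 0.23 with IL-17 (0.0114). Top2a had 75.2, 106 and 208 CPM in siIMP2, against 103, 144 and 379 CPM in siControl, and fell by 0.62 ± 0.15 (0.0062), and by 0.62 ± 0.15 with IL-17 (0.00612). Top2a was lower in siIMP2 than in siControl in RB160, and in the NA libraries siIMP2 replicate 2 lay above siControl replicate 1. Tpx2 had 169, 174 and 70.0 CPM in siIMP2, against 99.9, 89.7 and 57.8 CPM in siControl, higher in siIMP2 within each prefix. It rose by 0.68 ± 0.14 (edgeR adjusted p = 0.0015), and by 0.59 ± 0.13 with IL-17 (0.00422), while its exon counts did not pass. Leaving out single libraries gave 0 to 13 genes lower in unstimulated cells, with 13 without siControl replicate 1, 1 without siControl replicate 2 and 0 without replicate 3 of siControl or of siIMP2. With IL-17 it gave 0 to 7, with 7 without siControl_IL17 replicate 1, 1 without replicate 2 or 3 of siControl_IL17 and 0 without siIMP2_IL17 replicate 3. The shares of all tested genes in these fits are not given here. A lower count therefore cannot be told apart from a general loss of calls.

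Other genes of the cell cycle were read from lists chosen by their roles. For each gene named from them, the log2 fold change ± SE is given without and then with IL-17, with the edgeR adjusted p of each in parentheses. Of all tested genes 16.7% were lower and 16.1% higher without IL-17, and 16.7% and 16.7% with it. These lists were not read in fits with libraries left out. In some of the named genes the control replicates differed as in the 38. siControl replicates 1 and 2 had 7.78 and 11.9 CPM for Cenph, 22.9 and 33.1 CPM for Aspm and 89.2 and 160 CPM for Ncapd2. For Smc3 and Stag1 they were near level, at 104 and 103 CPM and at 43.0 and 42.2 CPM. Of 33 tested kinetochore and centromere genes beyond the 38, 14 were lower in siIMP2 than in siControl and 0 higher (median -0.40), and 12 and 0 with IL-17 (median -0.35). Cenph, of the constitutive centromere network, had -0.85 ± 0.17 and -0.71 ± 0.17 (0.00172 and 0.0055), Hjurp, the chaperone of CENP-A, -0.44 ± 0.11 and -0.49 ± 0.11 (0.00753 and 0.00413), and Spc24, a subunit of the NDC80 complex, -0.57 ± 0.15 and -0.78 ± 0.16 (0.0126 and 0.00207). Of 26 other spindle, kinesin and cytokinesis genes 11 were lower and 1 higher (median -0.40), and 7 and 1 with IL-17 (-0.35). Aspm, a spindle pole gene, had -0.64 ± 0.15 and -0.53 ± 0.15 (0.00587 and 0.0174), Ckap5, a microtubule polymerase, -0.30 ± 0.07 and -0.26 ± 0.07 (0.00577 and 0.0105), and Fam64a -0.66 ± 0.17 and -0.49 ± 0.17 (0.00912 and 0.0397).

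Of 8 condensin subunit genes 5 were lower and 0 higher (median -0.45), and 4 and 0 with IL-17 (-0.42). Smc2 had -0.52 ± 0.15 and -0.50 ± 0.15 (0.0194 and 0.0217), Ncapg2 -0.44 ± 0.14 and -0.52 ± 0.14 (0.0291 and 0.0139) and Ncapd2 -0.56 ± 0.18 and -0.44 ± 0.18 (0.0304 and 0.0759). Of 16 genes for cohesin, its regulators and separase 9 were lower and 0 higher in each comparison (medians -0.31 and -0.28), among them the cohesin subunit genes Stag1 with -0.35 ± 0.06 and -0.24 ± 0.06 (0.000468 and 0.00467), Smc3 with -0.28 ± 0.05 and -0.29 ± 0.05 (0.00057 and 0.000484) and Stag2 with -0.30 ± 0.05 and -0.23 ± 0.05 (0.001 and 0.00485). Of 15 tested mitotic kinases, phosphatases and inhibitors beyond the 38, 6 were lower and 2 higher (median -0.28), and 6 and 3 with IL-17 (-0.23). Cdkn3, a phosphatase of CDKs, had -0.73 ± 0.18 and -0.64 ± 0.18 (0.00707 and 0.0155) and Mastl, the Greatwall kinase gene, -0.65 ± 0.18 and -0.52 ± 0.18 (0.0142 and 0.0399), while Plk3, a stress-responsive polo-like kinase gene, had 0.38 ± 0.10 and 0.36 ± 0.10 (0.0127 and 0.0162). The 18 genes of the anaphase-promoting complex and its regulators were near the median of all genes, with 3 lower and 1 higher in each comparison (medians -0.09 and 0.02). Anapc4 had -0.20 ± 0.05 and -0.22 ± 0.05 (0.0136 and 0.00835) and Cdc27 -0.20 ± 0.06 and -0.23 ± 0.06 (0.0203 and 0.0107), and Anapc16 0.19 ± 0.06 and 0.25 ± 0.06 (0.0199 and 0.00403).

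Of 18 genes for DREAM, B-MYB and E2F factors 6 were lower and 0 higher (median -0.08), and 6 and 1 with IL-17 (-0.11). The pocket protein genes Rbl1 and Rbl2 had -0.46 ± 0.07 and -0.41 ± 0.07 (0.000318 and 0.000831) and -0.32 ± 0.06 and -0.36 ± 0.06 (0.00102 and 0.000445), and E2f8, a repressing E2F, -0.60 ± 0.12 and -0.57 ± 0.12 (0.0021 and 0.00289). Of 8 genes for G1 cyclins and their kinases 3 were lower and 0 higher (median -0.07), and 1 and 0 with IL-17 (-0.05). Ccne2, cyclin E2, had -0.59 ± 0.14 and -0.73 ± 0.14 (0.00681 and 0.00183), Cdk4 -0.28 ± 0.07 and -0.19 ± 0.07 (0.00782 and 0.0529) and Cdk6 -0.23 ± 0.07 and -0.05 ± 0.07 (0.0223 and 0.646). Of 8 genes for CDK inhibitors and RB1 1 was lower and 2 higher (median -0.03), and 0 and 2 with IL-17 (0.00). Cdkn1a, which encodes the CDK inhibitor p21, stood at 623, 631 and 303 CPM in siIMP2, against 427, 416 and 218 CPM in siControl, and at 608, 632 and 296 CPM in siIMP2_IL17, against 430, 395 and 188 CPM in siControl_IL17. It was higher in siIMP2 within each prefix, with 0.54 ± 0.05 and 0.61 ± 0.05 (1.27e-05 and 5.52e-06). Here replicates 1 and 2 of siControl differed little, unlike for the mitosis genes. Rb1 had 0.42 ± 0.10 and 0.42 ± 0.10 (0.00793 and 0.00791) and Cdkn2c, a CDK4 and CDK6 inhibitor gene, -0.53 ± 0.18 and -0.49 ± 0.18 (0.0387 and 0.058).

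Markers of cell types moved with the siRNA as well. Of 10 fibroblast markers 7 were lower and 1 higher in both siRNA comparisons, with medians of -0.65 and -0.68. Their summed level was 18567 to 23518 CPM in siIMP2, against 18185 to 22391 CPM in siControl, and 17310 to 18583 CPM in siIMP2_IL17, against 15867 to 18300 CPM in siControl_IL17. Of 4 tested epithelial markers 2 were higher and 1 lower, and 3 and 1 with IL-17, with sums of 69.2 to 207 CPM in siIMP2, against 41.7 to 125 CPM in siControl, and 50.7 to 166 CPM in siIMP2_IL17, against 37.9 to 113 CPM in siControl_IL17. Of 3 tested neural markers 2 were lower, and 1 with IL-17, with sums of 37.7 to 85.0 CPM in siIMP2, against 43.8 to 132 CPM in siControl, and 40.2 to 99.4 CPM in siIMP2_IL17, against 36.7 to 146 CPM in siControl_IL17. Of 2 tested endothelial markers 1 was lower, and of 2 macrophage markers 0. Their part in the levels of the mitosis genes was not tested.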

How the data were processed

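Per the submitters' processing notes, the genome build was mm10. Aligner, counter and strand: not given in the sources used here. Raw counts of reads per gene were deposited by the authors for 12 libraries, with total and unique gene reads, TPM values (scaled by gene length and depth), and their own comparisons as log2 fold changes and p-values. The members and gene lists were chosen with earlier results of these data known.

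Counts were tested with edgeR 4.0.16 in 1 quasi-likelihood model of all 4 groups and the title prefix. Library factors came from TMM, filterByExpr used a count minimum of 10, and p-values were adjusted by Benjamini-Hochberg over 13702 genes, with a threshold of 0.05. CPM values use the TMM-scaled library size, and log2 CPM a prior count of 2. DESeq2 1.42.0, limma 3.58.1 (voom), other factors, filters and single libraries left out were alternatives. Reads outside exons are total gene reads less the counts and were tested the same way. The fit was tested on simulated data. Values in every library are given for Cdk1, Ccnb1, Mki67, Foxm1 and the 2 members of each role with the smallest p in siIMP2 against siControl. Of each other list up to 3 genes with the smallest p are named. Among these list genes Cdkn1a alone is given in every library, a choice outside that rule. Libraries of a group differed by more than sampling noise (chi-square per degree of freedom of 8.71 to 230).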

Additional observations from a re-analysis of the deposited data

How the results depend on the processing

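No paired analysis was possible because the labels give no replicate numbers, and those used here follow the order of deposit. The title prefix, which the labels do give, was a term of the fit. Genes called lower in unstimulated cells, 15 by the stated test, numbered 29 without a filter on low counts, 0 without the title-prefix term, 4 in the NA libraries alone, 4 in a robust fit and 34 without control replicate 1. With IL-17 the 12 became 23, 0, 4, 5 and 32, and 6 with GC and length offsets. In those fits 11.1%, 1.34%, 15.1%, 16.4% and 15.2% of all tested genes were lower in unstimulated cells. With IL-17 the shares were 11.1%, 1.42%, 15.5%, 16.6%, 15.8% and 14.9%. The share of the 38 lay below them without the prefix term, in the NA libraries alone and in the robust fit. Without control replicate 2, 1 gene (Tpx2) was higher with IL-17. Leaving out single libraries gave 2 to 31 genes lower, and 3 to 20 with IL-17. Of all tested genes 11.5% to 17.1% were lower in those fits, and 11.8% to 17.5% with IL-17. For reads outside exons leaving out single libraries gave 0 to 13 and 0 to 7, and DESeq2 gave 3 in unstimulated cells. The shares of all tested genes in these fits on reads outside exons are not given here. Genes lower in RB160 numbered 2 without the filter, with unique reads and with GC offsets, and 1 to 2 with a library left out. Fitting only the groups compared called 1 gene lower in siIMP2_IL17 against siIMP2, and without the filter the siRNA effect of 1 gene differed by prefix. The control and GC settings were chosen after seeing the data. Causes were not tested.

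Uncalled fold changes of 6 genes changed sign. Leaving out single libraries gave log2 fold changes from -0.29 to 0.10 for Aurka, from -0.17 to 0.043 for Anln and from -0.012 to 0.23 for Tpx2 in unstimulated cells. With IL-17 it gave -0.21 to 0.12 for Aurka, -0.22 to 0.040 for Anln, -0.28 to 0.12 for Ube2c, -0.36 to 0.0052 for Prc1 and -0.055 to 0.0088 for Bub3 (0.0077 without siIMP2_IL17 replicate 3). Without replicate 2 of both control groups Aurka had 0.11 and Anln 0.046, and with IL-17 Aurka 0.13, Anln 0.043, Ube2c 0.13, Prc1 0.015 and Bub3 0.0072, which had 0.10 with GC offsets. Without replicate 1 of both control groups Tpx2 had -0.018. Across the fold changes of the 38 genes in both siRNA comparisons and all other fits, 1627 kept direction and side of the threshold, 196 lost the call, 135 gained one and 18 changed sign. Depth was at least 31.9 reads per CPM.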
